A study of Mus musculus with 12 samples.

Results

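The 33 genes described here encode the enzymes and transporters that bring glucose into the heart muscle cell, split it to pyruvate, turn pyruvate into lactate, carry lactate across the membrane, and build or break glycogen. They were taken as a fixed list of symbols, chosen with earlier results of these data known, and all 33 were found among the 39210 genes of the deposited table. Ventricles of C57BL/6 mice, an inbred laboratory strain, were profiled by mRNA sequencing in 12 libraries, 3 in each of 4 groups. The groups were males in hypoxia, males in normoxia, females in hypoxia and females in normoxia. For the hypoxia groups the chamber was brought down by 1% oxygen per day over 14 days and then held at 7% for 2 weeks, whereas the normoxia groups stayed at 20.9% for 4 weeks. The labels give no age, and they do not say whether left and right ventricle were kept apart or whether each library came from its own animal. The p-values therefore rest on the spread between libraries alone, and that spread may be technical.

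Glycolysis yields ATP without oxygen, and cells that face low oxygen commonly draw on it more. The adult heart burns mostly fatty acids and also takes up lactate, which it oxidizes. Several steps are served by a pair of genes, one abundant in striated muscle and one expressed in most tissues, and many of the broadly expressed forms are known targets of the hypoxia-inducible factors, transcription factors that bind DNA when oxygen is short. In bulk tissue, fewer cells of a type and less RNA per cell cannot be told apart.

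The libraries held between 14915830 and 19397851 estimated counts. The summed level of 9 ventricular cardiomyocyte markers was 58478 to 68222 TPM in male hypoxia, against 60214 to 63713 TPM in male normoxia, and 64359 to 73591 TPM in female hypoxia, against 60233 to 70048 TPM in female normoxia. On the CPM scale, with TMM library sizes, the mean log2 CPM of these 9 markers was 12.48, 12.23 and 12.15 in male hypoxia, against 12.52, 12.52 and 12.67 in male normoxia, without overlap. In females it was 12.61, 12.22 and 12.22 in hypoxia, against 12.57, 12.65 and 12.46 in normoxia. Their median log2 change in CPM was -0.30 in males, where 2 of the 9 fell, and -0.16 in females, where none passed by edgeR and 1 was lower at an unadjusted p under 0.05. These markers thus moved in the same direction as the members that fell, on that scale. Male hypoxia libraries 2 and 3 stood apart. The atrial light chain gene Myl7 reached 137 and 111 TPM in them, against at most 1.66 TPM in the other 10 libraries. The 7 atrial markers summed to 510 to 2277 TPM in male hypoxia, against 66.7 to 114 TPM in male normoxia, and to 191 to 1243 TPM in female hypoxia, against 109 to 234 TPM in female normoxia. Of the 5 that could be tested by edgeR, 4 rose in males and 0 passed in females. In females 1 was higher and 1 lower at an unadjusted p under 0.05. Adipocyte markers, of cells that also use Slc2a4, summed to 846 to 1385 TPM in male hypoxia, against 387 to 514 TPM in male normoxia, and to 635 to 1008 TPM in female hypoxia, against 455 to 779 TPM in female normoxia. Of these 8 adipocyte markers only 3 had enough reads to be tested, of which 1 rose in males and 0 in females by edgeR. In male hypoxia libraries 2 and 3 the adipocyte hormone gene Adipoq had 2.42 and 1.12 TPM, against at most 0.575 TPM elsewhere. Adipoq was thus a small part of the summed level, which does not measure the amount of fat cells. Markers of red blood cells summed to 11398 to 18625 TPM in male hypoxia, against 1411 to 1997 TPM in male normoxia, and to 7426 to 11441 TPM in female hypoxia, against 1556 to 1952 TPM in female normoxia. Fibroblast markers summed to 263 to 455 TPM in male hypoxia, against 168 to 189 TPM in male normoxia, and to 187 to 302 TPM in female hypoxia, against 185 to 212 TPM in female normoxia. By edgeR 5 of the 6 rose in males and 0 passed in females. Macrophage markers summed to 126 to 144 TPM in male hypoxia, against 64.3 to 86.6 TPM in male normoxia, and to 78.3 to 142 TPM in female hypoxia, against 64.03 to 104 TPM in female normoxia. Neutrophil markers summed to 17.2 to 63.4 TPM in male hypoxia, against 4.57 to 11.5 TPM in male normoxia, and to 5.24 to 7.73 TPM in female hypoxia, against 4.59 to 15.4 TPM in female normoxia. Endothelial markers summed to 245 to 336 TPM in male hypoxia, against 111 to 142 TPM in male normoxia, and to 228 to 358 TPM in female hypoxia, against 143 to 172 TPM in female normoxia. By edgeR 4 of these 6 rose in males and 3 in females. Of 5 tested red blood cell markers 5 rose in males and 4 in females. Of 6 macrophage markers 1 rose in males and 0 in females, and of 3 tested neutrophil markers 1 and 0. Over all genes tested 8.47% rose in males and 3.97% in females. The 11 skeletal muscle markers, some of which heart also expresses, summed to 912 to 1125 TPM in male hypoxia, against 913 to 1011 TPM in male normoxia, and to 939 to 1102 TPM in female hypoxia, against 950 to 1028 TPM in female normoxia. Their defining fast myosin genes were at or near 0: Myh2 had no count in any of the 12 libraries, Myh1 reached 0.0296 TPM and Myh4 reached 0.0133 TPM. Female normoxia library 3 also stood apart: it correlated best with female hypoxia library 1 (r = 0.971), and its counts differed from normoxia libraries 1 and 2 by a chi-square per degree of freedom of 44.6 and 45.1, against 7.27 between those 2. The part of these cell types in the results was not tested, apart from the fits without male hypoxia libraries 2 and 3 given beside the results.

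Averaged over both sexes, hypoxic ventricles had more transcript of 5 members and less of 9. Ldha, Eno1, Pfkp, Gpi1 and Aldoa rose. The genes that fell were Slc2a4, Hk2, Pfkm, Pfkfb1, Pfkfb2, Pgam2, Eno3, Ldhb and Pygm. Of the 33 members, 32 had enough reads to be tested and 18 of these did not pass. A gene passed at a Benjamini-Hochberg adjusted p under 0.05 from edgeR's quasi-likelihood test, adjusted over all 13960 genes tested. The 14 that passed are 43.8% of the tested members, beside 27.9% of all genes tested. The 5 that rose are 15.6% of the members, beside 15% of all genes tested that rose, and the 9 that fell are 28.1%, beside 12.9% of all genes tested that fell. The share that rose is therefore that of the whole table. The median log2 fold change, hypoxia over normoxia, was -0.00498 over the 32 members and -0.00615 over all genes tested. This split depended on how libraries were scaled. Without scaling factors 12 members were higher and 5 lower, while the median of all genes stood at a log2 fold change of 0.20. A limma fit to log2(TPM + 0.1) gave 11 higher and 2 lower, with the median of all genes at 0.29. A log2 change of 0 on these scales thus lay below that of the median gene. With offsets for average transcript length, the calls of Hk2, Eno3, Pfkfb2 and Gpi1 were lost. Ldha, Eno1 and Pfkp among the higher genes, and Ldhb and Pfkfb1 among the lower ones, passed in the same direction in all 25 alternative fits.

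**Figure D1:**
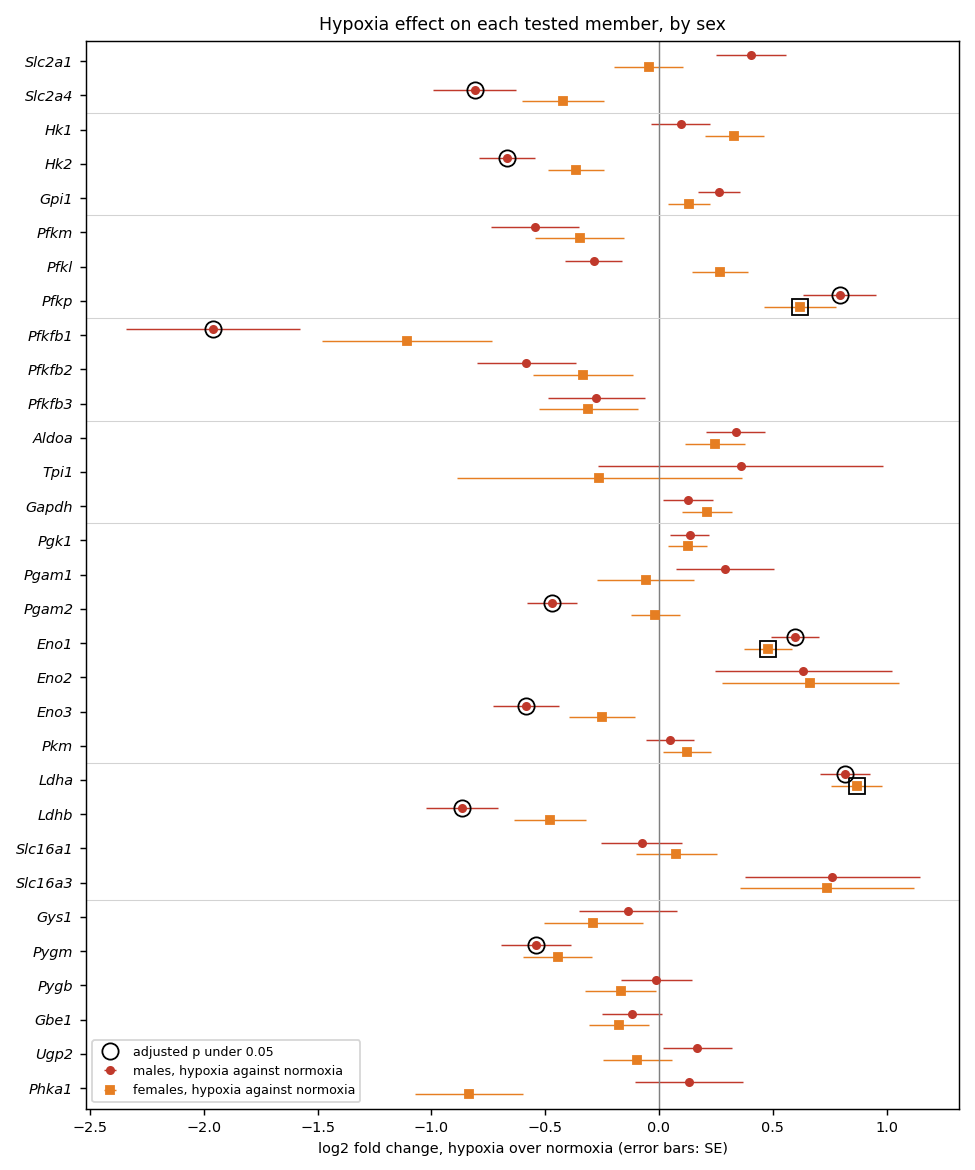
Log2 fold change of hypoxia over normoxia for 31 of the 32 tested members, in males (circles) and females (squares), with bars of 1 SE, grouped by step from glucose entry at the top to glycogen at the bottom; Pfkfb4, with no count in 8 libraries, is not drawn. Outlined points passed at an adjusted p under 0.05: Ldha, Eno1 and Pfkp lie to the right in both sexes, and 7 members lie to the left in males.

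Per unit of length the members spanned more than 4 orders of magnitude. Gapdh, which oxidizes glyceraldehyde 3-phosphate, was the most abundant member, at 5698 ± 291 TPM in male hypoxia, 4079 ± 171 TPM in male normoxia, 5736 ± 332 TPM in female hypoxia and 4143 ± 336 TPM in female normoxia (SD, n = 3 each). Aldoa, the muscle aldolase, came next and was below Gapdh in every library. In normoxia these were followed by Eno3, Ldhb, Pgam2 and Ldha, whose group means lay between 372 and 927 TPM. At the other end, Slc16a3, Eno2, Aldoc and Pfkfb4 stayed below 1.5 TPM as means in every group. Together the 33 members took 1.25 to 1.51% of TPM in male hypoxia, against 0.994 to 1.06% in male normoxia, and 1.33 to 1.40% in female hypoxia, against 1.04 to 1.14% in female normoxia. With mitochondrially encoded and haemoglobin genes left out of the total, the shares were 2.19 to 2.32% in male hypoxia, against 1.89 to 1.94% in male normoxia, and 2.28 to 2.31% in female hypoxia, against 1.82 to 2.01% in female normoxia. The groups of a sex did not overlap on either base. Gapdh, given above, and Aldoa weigh most in these sums. Aldoa averaged 1999 TPM in male hypoxia, against 1186 TPM in male normoxia, and 1944 TPM in female hypoxia, against 1413 TPM in female normoxia. On the TPM scale the median log2 change of all genes tested was itself 0.39 in males and 0.19 in females. Mitochondrially encoded transcripts took 20.3 ± 3.93% of counts in male hypoxia, against 28.3 ± 0.845% in male normoxia, and 22.2 ± 0.782% in female hypoxia, against 25.4 ± 0.970% in female normoxia (SD, n = 3 each).

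**Figure D2:**
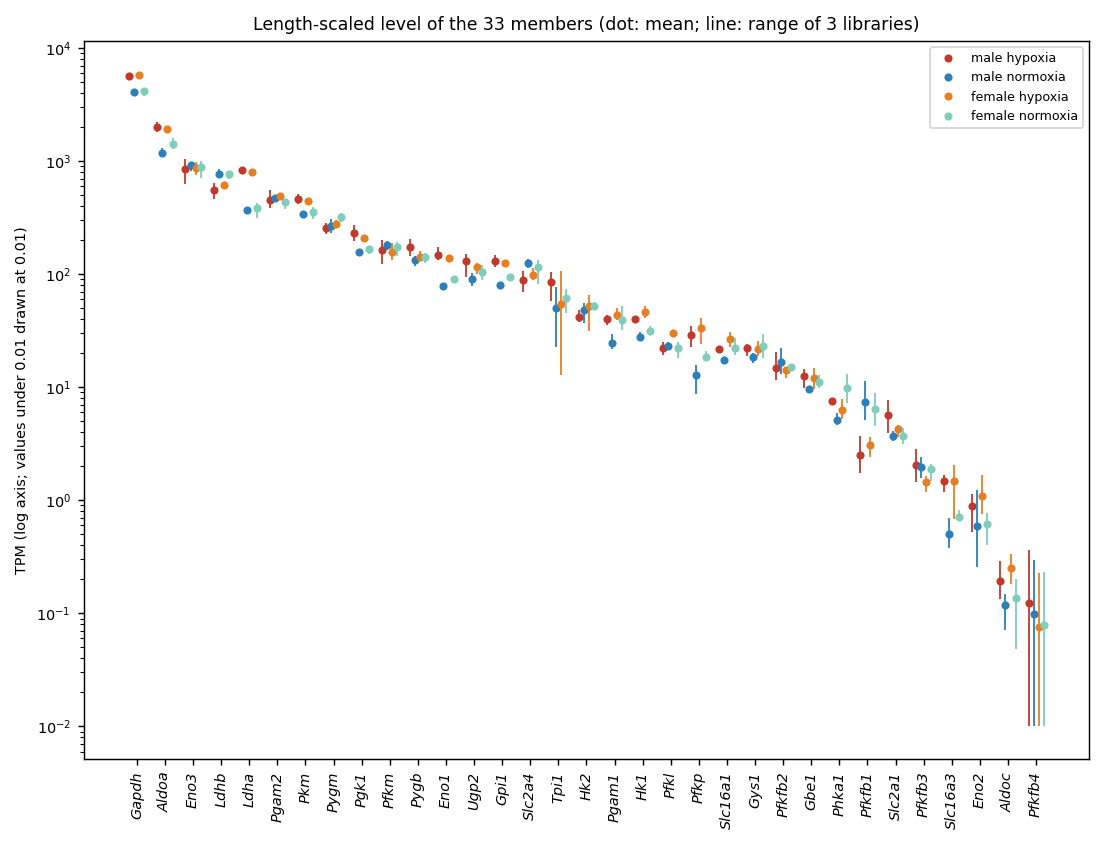
Level of the 33 members in TPM on a log axis, ordered by abundance, with the mean (dot) and the range of 3 libraries (line) for each of the 4 groups. Gapdh is the most abundant member, and Ldha lies below Ldhb in both normoxia groups but above it in both hypoxia groups.

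At glucose entry, the insulin-responsive transporter of muscle and fat, Slc2a4 (GLUT4), fell. On the CPM scale, which corrects counts for library size but not for gene length, Slc2a4 had 292, 225 and 188 CPM in male hypoxia, against 391, 442 and 402 CPM in male normoxia. In females it had 312, 251 and 230 CPM in hypoxia, against 385, 395 and 283 CPM in normoxia. The male groups did not overlap and the female groups did, through hypoxia library 1 and normoxia library 3. The averaged change was 1.53-fold lower in hypoxia (log2 -0.62 ± 0.13, SE, adjusted p = 0.00558). Without male hypoxia libraries 2 and 3 the log2 change of Slc2a4 was -0.46 (adjusted p = 0.0730), and on the TPM scale it was -0.35 (limma, adjusted p = 0.106). With the median of all genes on the TPM scale, 0.29, subtracted, the change of Slc2a4 was -0.64. Slc2a1 (GLUT1), the transporter of most other cells, was the rarer one at 3.70 to 5.70 TPM as group means, and its log2 change of 0.18 ± 0.11 did not pass (adjusted p = 0.236).

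Of the hexokinases, which trap glucose in the cell as glucose 6-phosphate, Hk2, the form of insulin-sensitive muscle, fell. Hk2 had 192, 161 and 154 CPM in male hypoxia, against 276, 270 and 260 CPM in male normoxia. In females Hk2 had 220, 181 and 173 CPM in hypoxia, against 260, 260 and 219 CPM in normoxia. Again the males did not overlap, and in females only hypoxia library 1 reached a normoxia value. The averaged change of Hk2 was 1.43-fold lower (log2 -0.52 ± 0.09, SE, adjusted p = 0.00208). It was -0.42 without male hypoxia libraries 2 and 3 (adjusted p = 0.0414). On the TPM scale, however, the change of Hk2 was -0.13 (limma, adjusted p = 0.627). With the median of all genes on that scale, 0.29, subtracted, it was -0.41. The average effective transcript length of Hk2 in the table ran from 1875 to 4334 bases between libraries. The call of Hk2 was lost with offsets for that length. Hk1, the broadly expressed form, had a log2 change of 0.21 ± 0.09 (adjusted p = 0.102). Gpi1, which turns glucose 6-phosphate into fructose 6-phosphate, was 1.15-fold higher (log2 0.20 ± 0.07, SE, adjusted p = 0.0433), with 475 to 489 CPM in male hypoxia, against 382 to 417 CPM in male normoxia, and 446 to 509 CPM in female hypoxia, against 396 to 459 CPM in female normoxia. The call of Gpi1 is a marginal one: with 1 library left out in turn it held only without female normoxia library 3, and the adjusted p of the other 11 fits was 0.0505 to 0.1002. That call was also lost with offsets for average transcript length.

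Phosphofructokinase, which commits sugar to glycolysis, is built from subunits of 3 genes, and these did not move together. The platelet-type subunit gene Pfkp rose, whereas the muscle subunit gene Pfkm fell. Pfkp had 97.7, 105 and 121 CPM in male hypoxia, against 66.3, 47.2 and 73.1 CPM in male normoxia. In females it had 109, 129 and 137 CPM in hypoxia, against 87.4, 72.5 and 84.0 CPM in normoxia. Each hypoxia library lay above each normoxia library of its sex. The averaged rise of Pfkp was 1.63-fold (log2 0.71 ± 0.11, SE, adjusted p = 0.00167), and it was 0.64 without male hypoxia libraries 2 and 3 (adjusted p = 0.0281). Pfkp shares 748 exon bases with Pitrm1 on the opposite strand. The setting for strand used in counting was not given, so reads from that stretch may not be told apart. Pitrm1 had a log2 change of -0.37 ± 0.13 (adjusted p = 0.0492), and the part of shared reads in the Pfkp result was not tested.

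The 250 bases before the first listed start of Pfkp are shown because this subunit rose and because hypoxia-inducible factors bind elements with the core ACGTG or GCGTG. They lie at chr13:6648772-6649021 on the minus strand of GRCm38.p6, from RefSeq, and are printed 5′ to 3′ with matches of either core on either strand in capitals.
Pfkp: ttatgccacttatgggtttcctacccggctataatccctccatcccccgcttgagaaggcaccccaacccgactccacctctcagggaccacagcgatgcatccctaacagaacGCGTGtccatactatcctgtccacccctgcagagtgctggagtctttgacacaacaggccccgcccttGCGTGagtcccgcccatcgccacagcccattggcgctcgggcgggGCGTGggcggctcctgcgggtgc
The window holds 3 matches, each of them GCGTG.

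Pfkm was the commonest subunit gene per length in every group. It had 705, 651 and 466 CPM in male hypoxia, against 921, 915 and 819 CPM in male normoxia. In females Pfkm had 805, 521 and 530 CPM in hypoxia, against 831, 857 and 675 CPM in normoxia. Female hypoxia library 1 lay inside the normoxia range, and the male groups did not overlap. The averaged change was 1.36-fold lower (log2 -0.45 ± 0.14, SE, adjusted p = 0.0315). The call of Pfkm was lost in 7 of the 12 fits that left out 1 library (adjusted p 0.0632 to 0.0821 in those), and the log2 change was -0.34 without male hypoxia libraries 2 and 3 (adjusted p = 0.203). The log2 change of Pfkm was -0.25 without scaling factors (adjusted p = 0.143) and -0.16 on the TPM scale (limma, adjusted p = 0.438). With the median of all genes on each scale subtracted, these changes were -0.45 and -0.44. The liver-type subunit gene Pfkl is taken up with the sexes.

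The PFKFB enzymes make and remove fructose 2,6-bisphosphate, the strongest activator of phosphofructokinase. Of these 4 genes 2 fell and 2 did not pass. Pfkfb1, known from liver and skeletal muscle, had the largest fold change of all members that passed. Pfkfb1 had 7.28, 3.38 and 3.06 CPM in male hypoxia, against 12.9, 25.3 and 14.6 CPM in male normoxia. In females it had 7.81, 5.59 and 4.74 CPM in hypoxia, against 9.99, 17.8 and 11.2 CPM in normoxia. The groups did not overlap in either sex, and normoxia library 2 was the highest in both. The averaged change was 2.89-fold lower (log2 -1.53 ± 0.27, SE, adjusted p = 0.00249), and it was -1.19 without male hypoxia libraries 2 and 3 (adjusted p = 0.0404). Pfkfb1 shares 123 exon bases with Apex2 on the opposite strand, whose log2 change was -0.58 ± 0.17 (adjusted p = 0.0252), and the part of shared reads was not tested. Pfkfb2, the heart form, had 42.4 to 76.4 CPM in male hypoxia, against 70.2 to 113 CPM in male normoxia, and 51.4 to 65.9 CPM in female hypoxia, against 70.9 to 82.3 CPM in female normoxia. Its change of 1.37-fold lower (log2 -0.46 ± 0.15, SE, adjusted p = 0.0456) held in 2 of the 12 fits that left out 1 library, and the adjusted p of the other 10 was 0.0526 to 0.111. It was -0.25 for Pfkfb2 without scaling factors (adjusted p = 0.256) and -0.14 on the TPM scale (limma, adjusted p = 0.581). With the median of all genes on each scale subtracted, these changes were -0.44 and -0.42. The call of Pfkfb2 was also lost with offsets for average transcript length. Pfkfb3, a form known to respond to low oxygen in other cells, had a log2 change of -0.29, which did not pass (adjusted p = 0.169). Pfkfb4 had no count in 8 libraries and 18.6 to 31.7 estimated counts in 1 library of each group, so no change of it could be described.

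In the triose steps, where fructose 1,6-bisphosphate is cut and oxidized, Aldoa rose. Aldoa had 3899, 3387 and 3291 CPM in male hypoxia, against 2664, 2553 and 3155 CPM in male normoxia. In females it had 3938, 3460 and 3490 CPM in hypoxia, against 2758, 2887 and 3540 CPM in normoxia. Normoxia library 3 was the highest normoxia library in both sexes and reached into the hypoxia range in females. The averaged rise was 1.22-fold (log2 0.29 ± 0.09, SE, adjusted p = 0.0359). The call of Aldoa was lost in 7 of the 12 fits that left out 1 library (adjusted p 0.0584 to 0.0871), and without male hypoxia libraries 2 and 3 the log2 change was 0.36 (adjusted p = 0.0670). Gapdh had a log2 change of 0.17 that did not pass (adjusted p = 0.125). Tpi1, which interconverts the triose phosphates, ranged from 9.68 to 95.2 CPM, both within female hypoxia, and no change of it could be read (adjusted p = 0.947). The average effective transcript length of Tpi1 in the table was 502 to 559 bases, and its estimated counts depend on how reads were assigned to transcripts, which was not tested, so its levels are uncertain. Aldoc, the brain aldolase, had at most 0.68 CPM and was too low to test.

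In lower glycolysis the enolases, which make phosphoenolpyruvate, moved apart. Eno1, the form of most tissues, rose, and the muscle form Eno3 fell. Eno1 had 277, 244 and 255 CPM in male hypoxia, against 150, 169 and 193 CPM in male normoxia. In females Eno1 had 243, 268 and 271 CPM in hypoxia, against 187, 194 and 180 CPM in normoxia. Neither sex showed any overlap. The averaged rise of Eno1 was 1.45-fold (log2 0.54 ± 0.07, SE, adjusted p = 0.000815), and it was 0.59 without male hypoxia libraries 2 and 3 (adjusted p = 0.0106). Eno3 had 1116, 933 and 784 CPM in male hypoxia, against 1359, 1430 and 1456 CPM in male normoxia. In females Eno3 had 1224, 1155 and 1012 CPM in hypoxia, against 1396, 1495 and 1143 CPM in normoxia, and normoxia library 3 lay among the hypoxia libraries. The averaged change of Eno3 was 1.34-fold lower (log2 -0.42 ± 0.10, SE, adjusted p = 0.0117). The change was -0.30 without male hypoxia libraries 2 and 3. Without scaling factors it was -0.22 (edgeR, adjusted p = 0.0990), and on the TPM scale it was -0.10 (limma, adjusted p = 0.645). With the median of all genes on each of these scales subtracted, it was -0.42 and -0.38. The call of Eno3 was also lost with offsets for average transcript length.

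Phosphoglycerate mutase, which shifts the phosphate of 3-phosphoglycerate, has a muscle gene, Pgam2, and a broad one, Pgam1. Pgam2 had 396, 404 and 324 CPM in male hypoxia, against 510, 504 and 544 CPM in male normoxia. In females it had 438, 448 and 413 CPM in hypoxia, against 467, 453 and 394 CPM in normoxia. Only the male groups were apart. The averaged change was 1.18-fold lower (log2 -0.24 ± 0.08, SE, adjusted p = 0.0348). The call of Pgam2 was lost in 8 of the 12 fits that left out 1 library (adjusted p 0.0547 to 0.0858). The log2 change was -0.20 without male hypoxia libraries 2 and 3. The call was lost too without scaling factors (log2 -0.04, edgeR, adjusted p = 0.763) and on the TPM scale (log2 0.07, limma, adjusted p = 0.676). The median of all genes was 0.20 and 0.29 on these scales. With that median subtracted, the change of Pgam2 was -0.24 and -0.22. Pgam1 (log2 0.12, adjusted p = 0.597), Pgk1, which makes ATP from 1,3-bisphosphoglycerate (0.13, adjusted p = 0.133), and Pkm, the pyruvate kinase gene (0.09, adjusted p = 0.422), did not pass. Eno2, the neuronal enolase, had a log2 change of 0.65 ± 0.27 at about 1 CPM and did not pass (adjusted p = 0.0987).

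At the lactate step the genes of the 2 subunits of lactate dehydrogenase went in opposite directions. Ldha encodes the M subunit, common where pyruvate is made into lactate, and rose more firmly than any other member. Ldhb encodes the H subunit, typical of heart, where lactate is oxidized, and fell. Ldha (ENSMUSG00000063229) had 1233, 1107 and 1220 CPM in male hypoxia, against 676, 637 and 708 CPM in male normoxia. In females Ldha had 1189, 1198 and 1207 CPM in hypoxia, against 724, 688 and 556 CPM in normoxia. The lowest hypoxia library stood well above the highest normoxia library in each sex. The averaged rise of Ldha was 1.79-fold (log2 0.84 ± 0.08, SE, adjusted p = 0.000132), and it was 0.87 without male hypoxia libraries 2 and 3 (adjusted p = 0.00285). Ldhb (ENSMUSG00000030246) had 250, 161 and 184 CPM in male hypoxia, against 353, 341 and 391 CPM in male normoxia. In females Ldhb had 254, 224 and 198 CPM in hypoxia, against 279, 328 and 335 CPM in normoxia. Here too the groups of a sex did not overlap, and hypoxia library 1 was the nearest to normoxia in both sexes. The averaged change of Ldhb was 1.59-fold lower (log2 -0.67 ± 0.11, SE, adjusted p = 0.00201), and it was -0.51 without male hypoxia libraries 2 and 3 (adjusted p = 0.0274).

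The promoter windows of both subunit genes are shown because the genes moved in opposite directions. Each is the 250 bases before the first listed start in RefSeq on GRCm38.p6, printed 5′ to 3′ on the strand of the gene, with matches of ACGTG or GCGTG on either strand in capitals. The Ldha window lies at chr7:46845554-46845803 on the plus strand and the Ldhb window at chr6:142507958-142508207 on the minus strand.
Ldha: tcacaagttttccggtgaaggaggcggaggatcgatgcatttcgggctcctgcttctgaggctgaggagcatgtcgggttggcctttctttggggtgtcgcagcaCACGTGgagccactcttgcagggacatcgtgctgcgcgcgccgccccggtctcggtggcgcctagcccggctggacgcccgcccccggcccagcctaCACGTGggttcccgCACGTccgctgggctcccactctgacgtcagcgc
Ldhb: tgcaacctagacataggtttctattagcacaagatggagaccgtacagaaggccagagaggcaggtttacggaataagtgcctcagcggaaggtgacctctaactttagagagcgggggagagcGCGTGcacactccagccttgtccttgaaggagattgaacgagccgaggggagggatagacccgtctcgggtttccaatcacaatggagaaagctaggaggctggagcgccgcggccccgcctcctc
The Ldha window holds 5 matches, since each CACGTG reads as ACGTG on both strands, and the Ldhb window holds 1. Across the table of 27025 promoters of the same length, 38.6% held at least 1 match, and 22 of the 32 members with an entry did (68.8%). The share was 3 of 5 among members that rose (60.0%), 6 of 8 among those that fell (75.0%) and 12 of 18 among those that did not pass (66.7%). A match describes the letters of the window and says nothing of binding.

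Of the monocarboxylate transporters, Slc16a1 (MCT1), which carries lactate in heart, had a log2 change of 0.00 (adjusted p = 1.00) and 17.4 to 26.9 TPM as group means. Slc16a3 (MCT4), the export form of glycolytic cells, was much rarer, at 1.49 ± 0.27 TPM in male hypoxia, 0.508 ± 0.168 TPM in male normoxia, 1.47 ± 0.71 TPM in female hypoxia and 0.715 ± 0.0862 TPM in female normoxia (SD, n = 3 each). Its log2 change of 0.75 ± 0.27 in the count fit did not pass (adjusted p = 0.0593), but Slc16a3 was past the threshold without scaling factors (0.97, adjusted p = 0.0241) and on the TPM scale (1.12, limma, adjusted p = 0.00692). With the median of all genes on each scale subtracted, these changes were 0.77 and 0.83.

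Among 6 glycogen genes 1 fell and 5 did not pass. Pygm, the muscle glycogen phosphorylase that frees glucose 1-phosphate, had 796, 672 and 577 CPM in male hypoxia, against 972, 929 and 1069 CPM in male normoxia. In females Pygm had 914, 677 and 660 CPM in hypoxia, against 931, 1029 and 1106 CPM in normoxia. The groups of a sex did not overlap, though hypoxia library 1 came close to normoxia in females. The averaged change was 1.41-fold lower (log2 -0.49 ± 0.11, SE, adjusted p = 0.00725). Without male hypoxia libraries 2 and 3 it was -0.38 (adjusted p = 0.0882), and on the TPM scale -0.13 (limma, adjusted p = 0.354). With the median of all genes on the TPM scale, 0.29, subtracted, the change of Pygm was -0.42. The brain phosphorylase gene Pygb (log2 -0.09, adjusted p = 0.569), the synthase gene Gys1 (-0.21, adjusted p = 0.325), the branching enzyme gene Gbe1 (-0.15, adjusted p = 0.263), Ugp2, which makes the UDP-glucose that synthase uses (0.04, adjusted p = 0.825), and Phka1, a muscle subunit of phosphorylase kinase (-0.35, adjusted p = 0.139), did not pass.

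**Figure D3:**
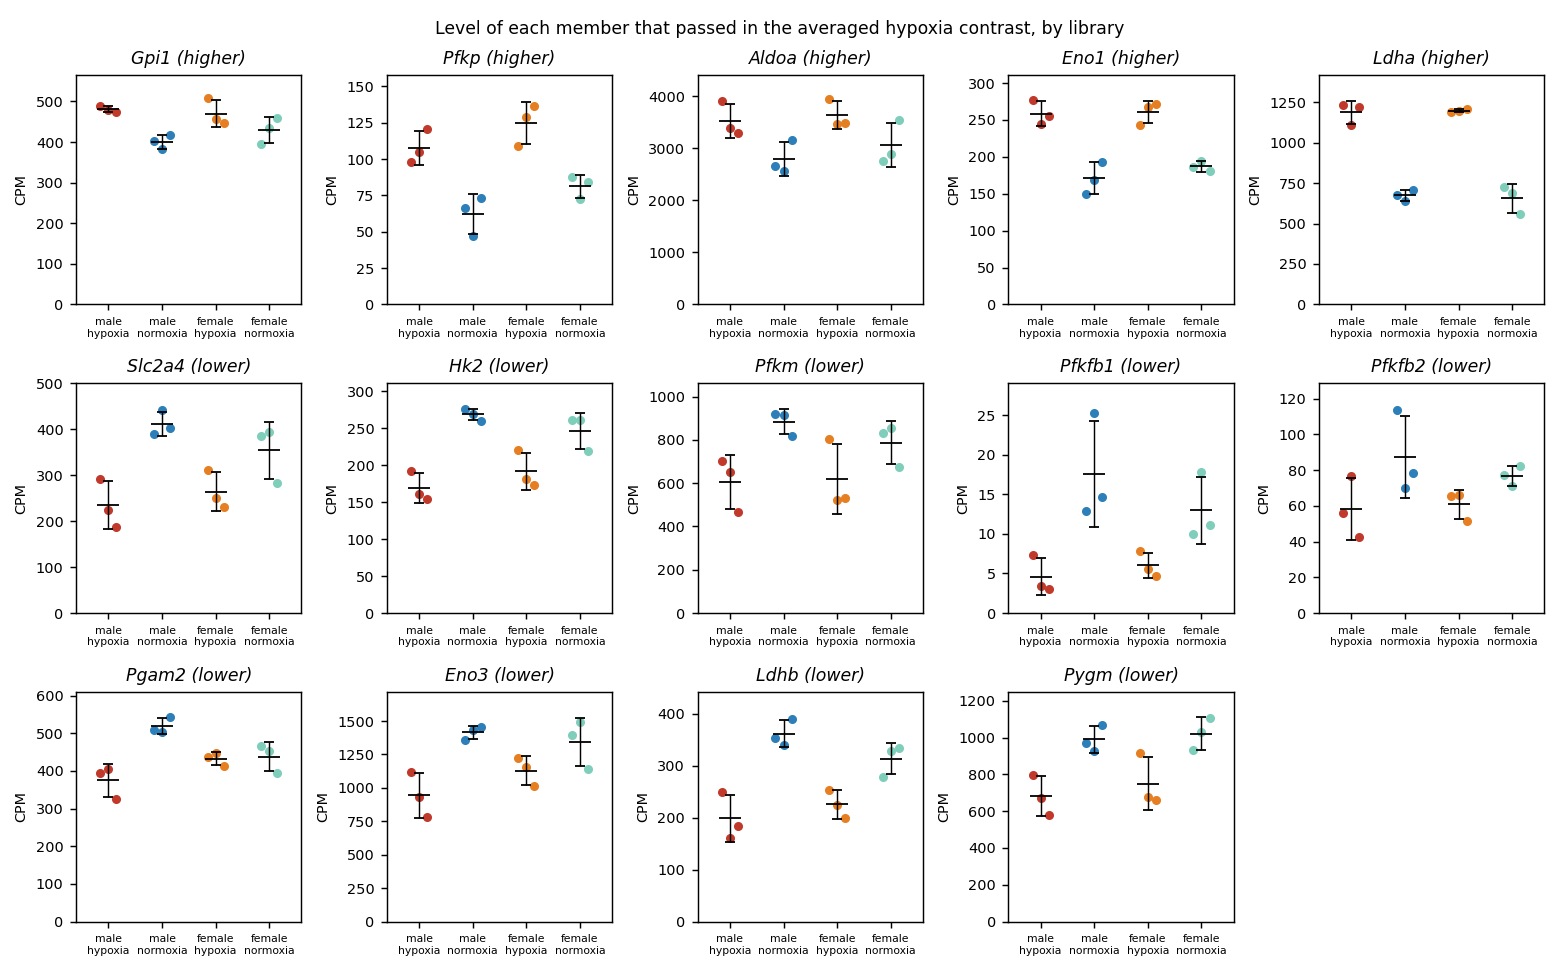
CPM in each library for the 14 members that passed averaged over sexes, with the group mean and SD (n = 3), on axes that start at 0. The hypoxia libraries lie above normoxia of the same sex for Pfkp, Eno1 and Ldha, and below it for Pfkfb1, Ldhb and Pygm, with no overlap in either sex.

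Across the tested members, 3 lay above normoxia without overlap in both sexes (Ldha, Eno1 and Pfkp, 9.38%) and 3 lay below (Ldhb, Pfkfb1 and Pygm, 9.38%). Over all genes tested the shares were 7.79% above and 6.92% below.

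The balance between 2 genes of the same step does not depend on how libraries are scaled, because both are read in the same library. It was compared for 10 pairs as the log2 ratio of TPM, with 0.1 added to each value. An exact two-sided permutation test exchanged hypoxia and normoxia labels within each sex, which gives 400 arrangements and a smallest p of 0.005, and p-values were adjusted over the 10 pairs. The balance differed in 4 pairs. The largest difference was that of lactate dehydrogenase. Ldha made up 60.3 ± 4.49% of the summed TPM of Ldha and Ldhb in male hypoxia, against 32.7 ± 2.56% in male normoxia, and 56.6 ± 1.76% in female hypoxia, against 33.3 ± 4.96% in female normoxia (SD, n = 3 each). By TPM, Ldhb was thus the commoner transcript in all 6 normoxia libraries and Ldha in all 6 hypoxia libraries. This order in normoxia rests on the estimated transcript lengths. By CPM, which is not corrected for length, Ldha was the higher in normoxia too. Its mean was 674 CPM, against 362 CPM for Ldhb, in male normoxia, and 656 against 314 CPM in female normoxia. The log2 ratio was higher by 1.52 in hypoxia (exact permutation p = 0.005, adjusted p = 0.0167), and by 1.39 without male hypoxia libraries 2 and 3, where fewer arrangements exist and the pair did not pass.

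Pfkp over Pfkm was higher by 1.15 on the log2 scale and Eno1 over Eno3 by 0.86 (exact permutation p = 0.005 and adjusted p = 0.0167 for each), with no overlap in either sex. Pfkp made up 15.6 ± 5.55% of the pair in male hypoxia, against 6.75 ± 2.30% in male normoxia, and 17.9 ± 5.83% in female hypoxia, against 9.78 ± 1.31% in female normoxia. Eno1 made up 15.3 ± 2.44% of its pair in male hypoxia, against 7.95 ± 1.04% in male normoxia, and 13.9 ± 2.23% in female hypoxia, against 9.27 ± 1.44% in female normoxia (SD, n = 3 each). The muscle forms of both pairs thus stayed the commoner ones in every group. Without male hypoxia libraries 2 and 3 the differences were 0.94 for Pfkp over Pfkm and 0.75 for Eno1 over Eno3, and neither passed. Hk2 over Hk1 was lower by 0.67 (log2 difference -0.67, exact permutation p = 0.01, adjusted p = 0.025). Hk2 made up 50.5 ± 4.11% of the pair in male hypoxia, against 62.9 ± 4.96% in male normoxia, and 51.9 ± 12.6% in female hypoxia, against 62.3 ± 2.92% in female normoxia (SD, n = 3 each). The female groups of this pair overlapped, and the call was lost in 6 of the fits that left out 1 library.

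The other 6 pairs did not pass by the same exact permutation test. Pfkl over Pfkm differed by 0.35 (adjusted p = 0.05), Slc2a1 over Slc2a4 by 0.73, Slc16a3 over Slc16a1 by 0.81 and Pygb over Pygm by 0.32 (adjusted p = 0.0563 for each of these 3). For Pgam1 over Pgam2 the difference was 0.38 (adjusted p = 0.139), and for Aldoc over Aldoa it was -0.10 (adjusted p = 0.67).

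**Figure D4:**
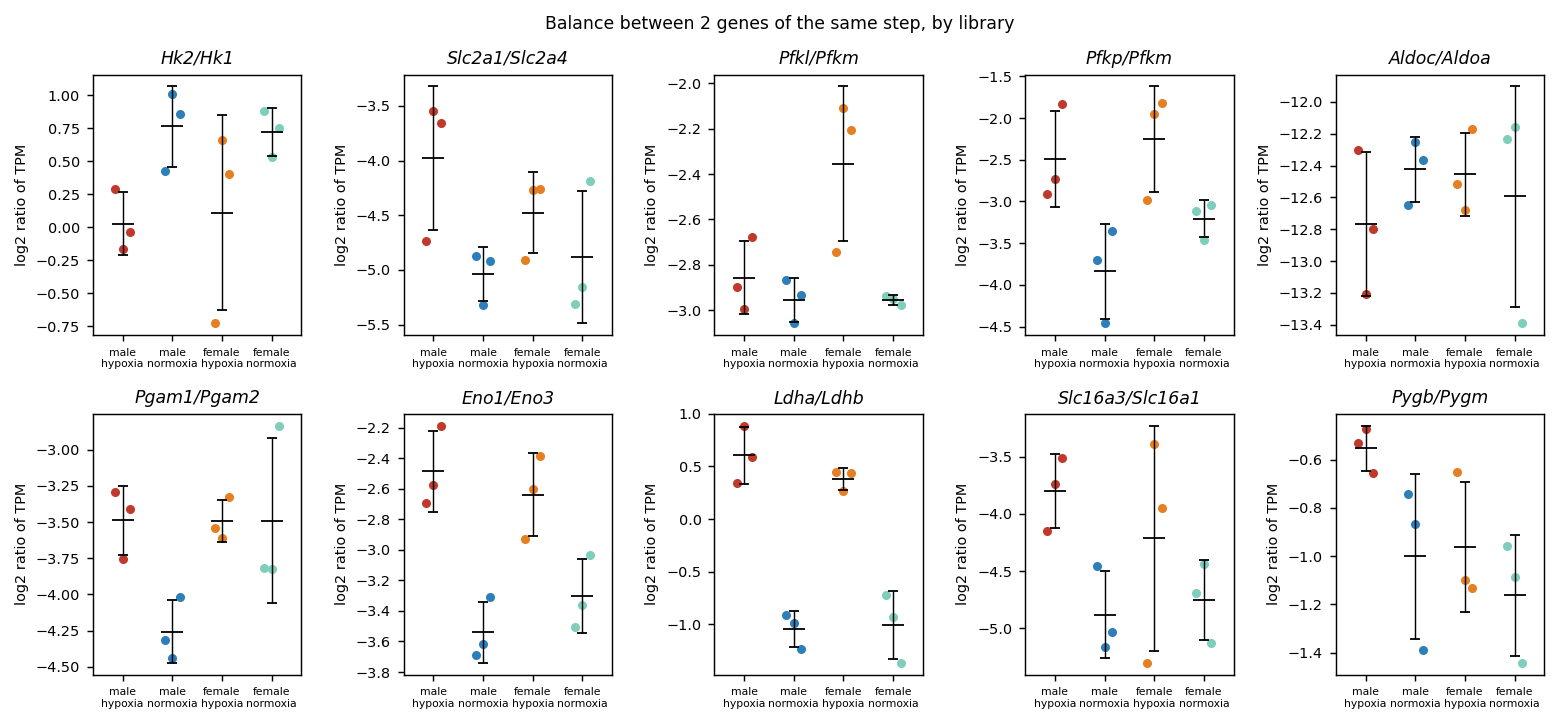
Log2 ratio of TPM between 2 genes of the same step in each library for 10 pairs, with the group mean and SD (n = 3); each panel has its own axis. Hypoxia lies above normoxia of the same sex without overlap for Ldha/Ldhb, Eno1/Eno3 and Pfkp/Pfkm.

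Within males 10 members passed (31.2%, beside 15.6% of all genes tested), of which 3 rose (Ldha, Eno1 and Pfkp, 9.38%, beside 8.47% that rose in the whole table) and 7 fell (Hk2, Pfkfb1, Pgam2, Eno3, Ldhb, Slc2a4 and Pygm, 21.9%, beside 7.1% that fell). Within females 3 members passed (9.38%, beside 5.99%), the same 3 that rose in males (9.38%, beside 3.97% that rose) and none fell by edgeR (0, beside 2.02% that fell), although 6 members were lower at an unadjusted p under 0.05. By limma voom Ldha and Eno1 rose in females, Pfkp did not pass and 0 members fell. By DESeq2 Ldha, Eno1 and Pfkp rose in females and 5 members fell, namely Hk2, Pfkfb1, Ldhb, Pygm and Phka1. No share over all genes is given here for DESeq2, limma voom or the unadjusted counts. The rise of Ldha was 0.87 ± 0.11 on the log2 scale in females (adjusted p = 0.00350) and 0.82 ± 0.11 in males (adjusted p = 0.00218). Eno1 rose by 0.48 ± 0.11 in females (adjusted p = 0.0285) and by 0.60 ± 0.11 in males (adjusted p = 0.00585). With only the female libraries fitted none of the 3 passed (adjusted p = 0.0630 for Ldha, 0.0890 for Pfkp and 0.0940 for Eno1, edgeR). The female call of Pfkp was also lost in 9 of the 12 fits that left out 1 library (adjusted p 0.0506 to 0.186) and that of Eno1 in 4 (0.0764 to 0.132). In males the call of Pygm was lost in 6 such fits, that of Eno3 in 5, and those of Slc2a4 and Pgam2 in 2 each. Among the genes that fell averaged over sexes the estimates were smaller in females, for example -0.48 ± 0.16 for Ldhb in females, against -0.87 ± 0.16 in males, but the difference itself did not pass for any member. Without male hypoxia libraries 2 and 3, which leaves a single male hypoxia library assumed to vary like the other groups, no member passed in males by edgeR. The male estimate was then 0.87 for Ldha (adjusted p = 0.0531), 0.70 for Eno1 (adjusted p = 0.103) and -0.53 for Ldhb (adjusted p = 0.236). Without female hypoxia library 1, 4 members fell in females: Hk2, Pygm, Pfkm and Phka1. With 1 library left out in turn, 13 to 826 of all genes fell in females. Whether the members followed the whole table was not tested.

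The test of the female change minus the male change called 0 of the 32 members by edgeR, beside 0.00716% of all genes tested by edgeR. DESeq2 and limma voom also called 0 members. At an unadjusted p under 0.05 there were 3 members, namely Pfkl, Pgam2 and Phka1. Pfkl had 124, 103 and 93.9 CPM in male hypoxia, against 128, 125 and 139 CPM in male normoxia. In females Pfkl had 156, 155 and 150 CPM in hypoxia, against 136, 140 and 107 CPM in normoxia. On this TMM-scaled CPM scale males were lower and females higher in hypoxia, without overlap, and the difference of the changes was 0.55 ± 0.18 on the log2 scale (edgeR, adjusted p = 0.658). On the TPM scale Pfkl had 22.8, 25.0 and 19.2 TPM in male hypoxia, against 24.9, 23.4 and 21.2 TPM in male normoxia, which overlap, and 28.4, 30.8 and 31.5 TPM in female hypoxia, against 23.9, 25.1 and 18.3 TPM in female normoxia. The male log2 change of Pfkl was -0.04 without scaling factors (adjusted p = 0.849) and -0.06 on the TPM scale (limma, adjusted p = 0.806). The male median of all genes on these scales was 0.26 and 0.39. With that median subtracted, the male change of Pfkl was -0.30 and -0.45, beside -0.29 with TMM library sizes. Averaged over sexes Pfkl had a log2 change of -0.01 (adjusted p = 0.944). In the comparison of females with males, edgeR called 0 members in hypoxia and 0 in normoxia, beside 0.15% and 0.0716% of all genes tested. At an unadjusted p under 0.05 there were 3 members in hypoxia and 4 in normoxia. DESeq2 called 1 in hypoxia, Pfkl, which was higher in females (log2 0.53, adjusted p = 0.00774), where edgeR gave 0.52 ± 0.12 (adjusted p = 0.198). It called 0 in normoxia, and limma voom called 0 in either.

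A further 49 genes of sugar, glycogen and lactate metabolism were listed as the surroundings of the pathway, of which 41 could be tested. Averaged over sexes 6 rose and 13 fell, and 22 did not pass, with a median log2 change of -0.17, beside -0.00615 over all genes tested. The 6 are 14.6%, beside 15% of all genes tested that rose, and the 13 are 31.7%, beside 12.9% that fell. This split too depended on the scaling: 11 were higher and 7 lower without scaling factors, and 10 higher and 3 lower on the TPM scale by limma. Ldhd, the mitochondrial enzyme that oxidizes D-lactate, fell the most firmly, with 21.6 to 33.04 CPM in male hypoxia, against 67.7 to 70.4 CPM in male normoxia, and 22.5 to 33.03 CPM in female hypoxia, against 52.7 to 66.7 CPM in female normoxia. The averaged change of Ldhd was 2.42-fold lower (log2 -1.28 ± 0.13, SE, adjusted p = 0.000235). Bpgm, which makes the 2,3-bisphosphoglycerate of red blood cells, rose 1.93-fold (log2 0.95 ± 0.11, SE, adjusted p = 0.000373), beside the higher red blood cell markers of hypoxic hearts given above.

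In the same list, Emb, a partner protein of monocarboxylate transporters, rose (log2 1.12, adjusted p = 0.00464). Emb was low, at 2.71 to 4.53 CPM in male hypoxia, against 0.907 to 1.32 CPM in male normoxia. In females the groups overlapped, at 1.12 to 2.34 CPM in hypoxia, against 1.22 to 1.29 CPM in normoxia. The phosphoglucomutase gene Pgm2 also rose (0.72, adjusted p = 0.00807). Its relative Pgm1, which links glycogen to glycolysis, fell (-0.38, adjusted p = 0.00816). On the glycogen side Phkb, a subunit of phosphorylase kinase (-0.49, adjusted p = 0.00211), the glycogen phosphatase gene Epm2a (-0.49, adjusted p = 0.00162) and Gaa, which degrades glycogen in lysosomes (-0.53, adjusted p = 0.0133), fell. Also lower were G6pc3, a glucose 6-phosphatase (-0.47, adjusted p = 0.00113), the intracellular glucose transporter gene Slc2a8 (-0.49, adjusted p = 0.00767) and Mpc2, a subunit of the mitochondrial pyruvate carrier (-0.38, adjusted p = 0.00959). Averaged over sexes, Ldhd, Bpgm, Emb and Pgm2 passed in the same direction without scaling factors and on the TPM scale. Of the other 7 named here, Pgm1, Slc2a8 and Mpc2 did not pass without scaling factors, with log2 changes of -0.17 (adjusted p = 0.0888), -0.28 (adjusted p = 0.0805) and -0.17 (adjusted p = 0.145). On the TPM scale none of the 7 passed by limma, where their log2 changes lay between -0.23 and -0.0448. The median of all genes stood at 0.20 without scaling factors and at 0.29 on the TPM scale. In males Pgm1 averaged 61.9 ± 10.7 TPM in hypoxia and 60.3 ± 1.83 TPM in normoxia (SD, n = 3 each), Slc2a8 averaged 7.35 ± 2.06 TPM in hypoxia and 7.14 ± 2.23 TPM in normoxia, and Mpc2 averaged 395 ± 83.4 TPM in hypoxia and 379 ± 23.6 TPM in normoxia.

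Of the members, 9 had another listed gene with at least 95% identity over at least 200 bases, namely Eno1, Gapdh, Gpi1, Ldha, Ldhb, Pfkfb2, Pfkm, Pgam1 and Pgk1. For Pfkfb2 and Pfkm this gene is not a separate copy but an overlapping annotation. Gm29427 shares 1262 exon bases with Pfkfb2, and Gm26513 shares 341 with Pfkm, each on the same strand. The summed counts of such genes were at most 2.10% of the member's, for Pfkfb2 and Gm29427. For Gapdh, with 81 copies in the table, they came to 0.253%. These counts are as the authors' quantification assigned them, and several copies, such as Pgk1-rs7 and Pgam1-ps2, were listed at 0, so they cannot show how many reads of a copy were assigned to the member. The levels of these 9 members are uncertain to that extent.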

How the data were processed

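Per the labels' protocols, libraries came from RNA of frozen heart tissue and were made with a strand-keeping mRNA kit. FastQC, Salmon and the build GRCm39 are named in the submitters' processing notes; versions, annotation and the setting for strand are not given in the sources used here. The deposited table holds, per the file headers, an estimated count, an abundance in TPM and an average effective transcript length for each gene and library. Columns of per-sample values that belonged to no sample numbered 0. TPM values deposited by the authors summed to 889905 to 926060 per library. Symbols were found for 38941 of 39210 identifiers through an annotation of GRCm38, used for names and, with its own build, for promoter windows.

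Estimated counts were rounded and fitted with edgeR 4.0.16 in R 4.3.3 on all 12 libraries (filterByExpr, TMM, glmQLFTest, 8 residual degrees of freedom, two-sided). The filter left 13960 genes, over which p-values were adjusted. CPM are counts scaled to TMM-corrected library sizes, and ± is the SE of a log2 fold change or the SD of a level. The script was tested on simulated data. Every member is named. Values in every library are given for the 12 with the smallest p of those that passed averaged over sexes, and up to 12 further pathway genes are named by p, of which 1 is not reported here. Pfkl was given in every library after its values were seen. Members, lists and tests were chosen with earlier results of these data known. Alternatives were RLE and upper quartile factors, transcript length offsets, no filter and a stricter one, DESeq2 1.42.0, limma 3.58.1 voom, the replicate number as a block, removal of mitochondrial and haemoglobin genes, the compared libraries only, each library left out, and male hypoxia libraries 2 and 3 left out. Chosen after seeing the data were these 2 libraries left out with female normoxia library 3, library totals without scaling factors, and limma on log2(TPM + 0.1).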

Additional observations from a re-analysis of the deposited data

Results flagged for a closer look

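Pfkl, the liver-type subunit gene of phosphofructokinase, stood out because the sexes differed on the CPM scale with TMM library sizes: each male hypoxia library lay below each male normoxia library, and each female hypoxia library above each female normoxia library. The female change minus the male change was 0.55 on the log2 scale, with an adjusted p = 0.658 from edgeR's quasi-likelihood test over all genes, so the difference did not pass. Per unit of length the male libraries overlapped, at 22.8, 25.0 and 19.2 TPM in hypoxia, against 24.9, 23.4 and 21.2 TPM in normoxia. The male log2 change was -0.04 without scaling factors and -0.06 on the TPM scale. The male median of all genes on these scales was 0.26 and 0.39. With that median subtracted, the male change of Pfkl was -0.30 and -0.45, beside -0.29 with TMM library sizes. The female change, less the female median, was 0.29 and 0.25, beside 0.27 with TMM library sizes.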

How the results depend on the processing

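Counts over all genes moved with the setting. With 1 library left out in turn, 1505 to 2426 genes were higher and 1180 to 2209 lower averaged over sexes. In males 519 to 1645 were higher and 358 to 1391 lower, and in females 41 to 1255 and 13 to 826. Such counts are not given here for the other settings, so the member counts cannot be set against them. The counts of members called changed with the setting as follows. Averaged over sexes, 5 members were higher; 3 were with no filter, 3 without male hypoxia libraries 2 and 3, 12 without scaling factors, 11 on the TPM scale, and 3 to 5 with 1 library left out. The 9 lower became 3 without male hypoxia libraries 2 and 3, 5 without scaling factors, 2 on the TPM scale, and 6 to 10 with 1 library left out.

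In males the 3 higher became 5 by DESeq2, 0 without male hypoxia libraries 2 and 3, 1 when female normoxia library 3 was left out too, 9 without scaling factors, 11 on the TPM scale, and 3 to 4 with 1 library left out. The 7 lower became 0 without those 2 libraries and 0 without the 3, 4 without scaling factors, 2 on the TPM scale, and 3 to 8 with 1 library left out, lowest without male hypoxia library 3. In females the 3 higher became 0 with the compared libraries only, 1 without male hypoxia libraries 2 and 3, 1 without the 3 libraries, 6 without scaling factors, and 1 to 3 with 1 library left out. The 0 lower became 1 with upper quartile factors (Phka1), 5 by DESeq2, and 0 to 4 with 1 library left out. Between the sexes in hypoxia the 0 became 1 by DESeq2. Why each fit differed was not tested, beyond the fewer libraries of some.

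Of the calls within a sex, with 1 library left out in turn, the female call of Eno1 was lost in 4 fits (without hypoxia libraries 2 or 3 or normoxia libraries 1 or 2, adjusted p 0.0764 to 0.132) and that of Pfkp in 9 (0.0506 to 0.186). The male call was lost in 2 for Slc2a4 (hypoxia libraries 2 or 3, 0.0564 to 0.0612), in 2 for Pgam2 (hypoxia or normoxia library 3, 0.0601 to 0.0629), in 5 for Eno3 (any male library but hypoxia 1, 0.0546 to 0.0816) and in 6 for Pygm (the same 5 and female normoxia library 2, 0.0516 to 0.132).

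Directions turned for members near 0 that did not pass, as log2 changes averaged over sexes. Pfkl was 0.10 without male hypoxia libraries 2 and 3, 0.0398 without the 3 libraries, 0.19 without scaling factors and 0.19 on the TPM scale, and ran from -0.0694 to 0.0327 with 1 library left out. Pfkfb4 was 0.0411 without scaling factors and 0.0349 on the TPM scale, and ran from -3.32 to 2.96. Tpi1 was -0.15 by limma voom and -0.0561 with the replicate block, and ran from -0.46 to 0.31. Slc16a1 was -0.0118 with upper quartile factors, -0.0041 with length offsets, -0.00022 by voom and -0.0051 with the block, and ran from -0.0860 to 0.10. Gys1 was 0.0526 without the 3 libraries and 0.10 on the TPM scale. Pygb was 0.0052 without male hypoxia libraries 2 and 3, 0.11 without scaling factors and 0.19 on the TPM scale. Gbe1 was 0.0579 without scaling factors and 0.24 on the TPM scale. Ugp2 was -0.12 without the 2 libraries and -0.10 without the 3, and ran from -0.0180 to 0.10. Pgam2, which passed, was 0.0654 on the TPM scale. The median of all genes was 0.20 without scaling factors and 0.29 on the TPM scale. With that median subtracted, Pfkl, Pfkfb4, Gys1, Pygb, Gbe1 and Pgam2 were below 0 on both scales.

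For the ratios, without male hypoxia libraries 2 and 3 the calls of Hk2/Hk1 (-0.54), Pfkp/Pfkm (0.94), Eno1/Eno3 (0.75) and Ldha/Ldhb (1.39) were lost, where fewer arrangements raise the smallest p. From CPM in place of TPM, Slc2a1/Slc2a4 (0.80), Pfkl/Pfkm (0.46) and Pygb/Pygm (0.40) passed and Aldoc/Aldoa turned to 0.48. With a pseudocount of 1, Pfkl/Pfkm (0.34) and Aldoc/Aldoa (-0.49) passed. Aldoc/Aldoa was 0.13 without male hypoxia libraries 2 and 3. With 1 library left out the differences ran from -0.81 to -0.46 for Hk2/Hk1, 0.62 to 0.92 for Slc2a1/Slc2a4, 0.29 to 0.45 for Pfkl/Pfkm, 0.99 to 1.34 for Pfkp/Pfkm, -0.30 to 0.0068 for Aldoc/Aldoa, 0.30 to 0.55 for Pgam1/Pgam2, 0.78 to 0.93 for Eno1/Eno3, 1.43 to 1.59 for Ldha/Ldhb and 0.60 to 1.08 for Slc16a3/Slc16a1. The calls of Pfkp/Pfkm were lost without male hypoxia library 3 or female normoxia library 2, and those of Eno1/Eno3 and Ldha/Ldhb without female normoxia library 2.

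The replicate numbers gave no strong pairing of the libraries: 1 of 18 correlations between same-numbered libraries was over 0.1, and the highest was 0.186. In 10 of the 18 comparisons, however, the library correlated best with the same number. Whether same-numbered libraries shared a batch was not tested. With the replicate block 4 members were higher and 9 lower averaged over sexes, and Gpi1 was lost (0.20, adjusted p = 0.0606). At this depth Aldoc was too low to test, and Pfkfb4 had no count in 8 libraries.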
